A study of Danio rerio with 10 samples.

Results

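The 6 drug-treated brain libraries of *ppp2r2c* mutant zebrafish were divided by the measured level of a single clock gene, *PER1* (ENSDARG00000012499). They are 6 of the 10 libraries of the series. The 3 libraries above 100 CPM (the count of a gene divided by the total count of its library, times 1000000) were valproate 1, MPH 1 and MPH 2, and the 3 below were valproate 2, valproate 3 and MPH 3. The sides were chosen by this readout and cut across the drugs, so they are not treatment groups, and differences between them are described without a test. Each library held 2 pooled brains of 6-month-old fish of the Tübingen strain. All 6 fish pools carried the *ppp2r2c* m/m genotype (a4 mutant in the labels), a germ-line loss of a regulatory subunit of the phosphatase PP2A that the brain expresses. For 3 days they ate food soaked in a drug solution in phosphate-buffered saline, either methylphenidate (MPH, sold as Ritalin) at 1.08 mg/kg or valproate at 300 mg/kg. The other 4 libraries were 2 of ppp2r2c m/m fish and 2 of wild type (WT) without a drug, called vehicle libraries here, from the same strain and age. The labels give no hour of collection for any library.

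*PER1* belongs to the circadian clock, a feedback loop in which CLOCK and BMAL proteins switch on the *PER* and *CRY* genes, whose products then switch CLOCK and BMAL off. In zebrafish this loop runs in most cells and is reset by light, and its output reaches genes of metabolism, DNA repair and the cell cycle. Glucocorticoids, feeding and neuronal activity also act on *PER1* in vertebrate tissues.

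The gene that chose the sides read 187 CPM in valproate 1, 173 in MPH 1 and 271 in MPH 2, against 55.1 in valproate 2, 49.1 in valproate 3 and 40.6 in MPH 3. MPH 1 was thus the library nearest to the threshold from above and valproate 2 the nearest from below. The vehicle libraries, which the rule did not use, read 79.5 and 73.5 CPM in the mutant and 75.5 and 74.3 in WT. All 4 lay between the sides, below the threshold. Each drug has libraries on both sides, so every gene that separated the sides also separated the libraries within MPH and within valproate.

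**Figure D1:**
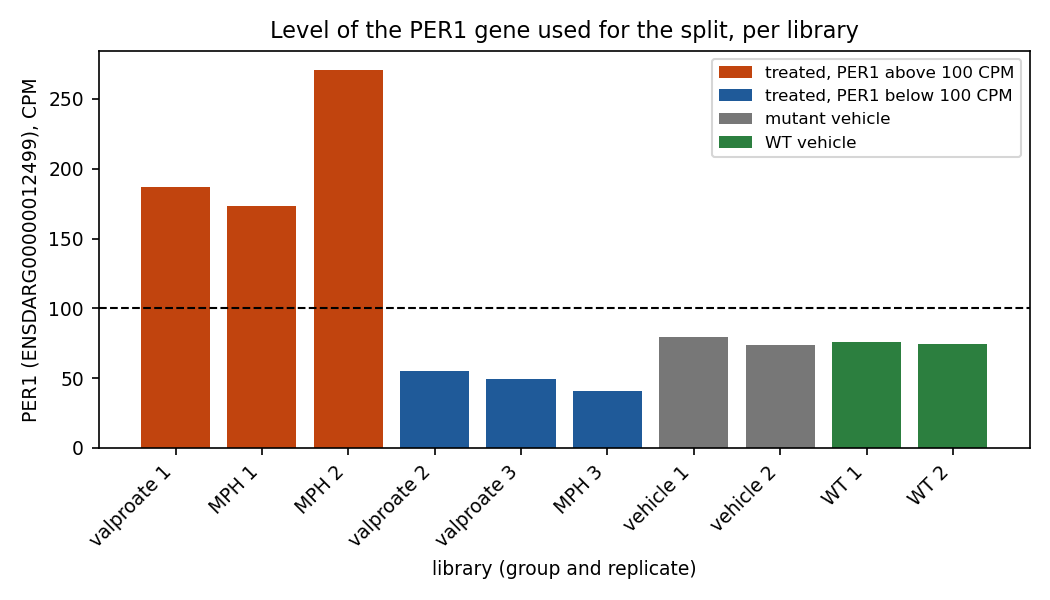
CPM of *PER1* (ENSDARG00000012499) in each of the 10 libraries, with the threshold of 100 CPM as a dashed line. The 3 treated libraries above it read 173 to 271 CPM, the 3 below it 40.6 to 55.1, and the 4 vehicle libraries 73.5 to 79.5.

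Total counts ranged from 19224942 to 25851076 across the 10 libraries. *PPP2R2C* (ENSDARG00000056797), the mutated gene, read 66.7, 43.0 and 68.4 CPM above the threshold and 59.1, 61.9 and 39.4 below, against 45.7 and 48.8 in mutant vehicle and 51.4 and 58.7 in WT. The levels overlapped between the sides, both WT libraries were above both mutant vehicle libraries, and gene counts do not read the edited allele. MPH 1 stood apart in ribosomal protein genes, which took 5.82% of its counts against 2.67% to 3.93% elsewhere, and in the genes it detected, 21142 against 22721 to 23618. The ribosomal share also differed by drug. It was 3.36% and 3.93% in MPH 2 and MPH 3, above the 3.06%, 3.02% and 2.67% of valproate 1, 2 and 3. Mutant vehicle held 3.86% and 3.25%. Valproate 2 and WT 2 stood apart in photoreceptor genes, whose summed level was 286 and 219 CPM against 22.0 to 47.7 in the other 8 libraries. Of the defining markers of brain cells, 21 of 21 listed neuronal, 18 of 18 oligodendrocyte and 23 of 26 radial glial genes reached a mean of 1 CPM over the treated libraries.

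The 6 treated libraries differed from each other more across the sides than across the drugs. In a principal component analysis of 17485 genes with a mean of at least 1 CPM, the first component held 41.6% of the variance and placed the 3 libraries above the threshold at 21.1, 40 and 25.0 and the 3 below at -33.2, -24.4 and -28.4. The second component, with 23.0%, set MPH 1 and MPH 3, at -30.7 and -28.7, apart from the other 4. Between pairs of libraries, the median absolute difference over genes was 0.174 to 0.289 on the log2 scale for pairs of different drugs on the same side. It was 0.262 to 0.368 for pairs of the same drug on opposite sides, so these ranges overlap slightly. With the vehicle libraries included, the first component ran from -32.4 and -31.5 in WT through -22.3 and -16.9 in mutant vehicle and -5.40 to -2.59 in the libraries below the threshold to between 33.0 and 47.7 in those above. The libraries below the threshold were set apart from all others on the second component, at -35.5 to -24.7 against 2.74 to 19.7. The split was made on these same libraries, so the components describe it and are no test of it.

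**Figure D2:**
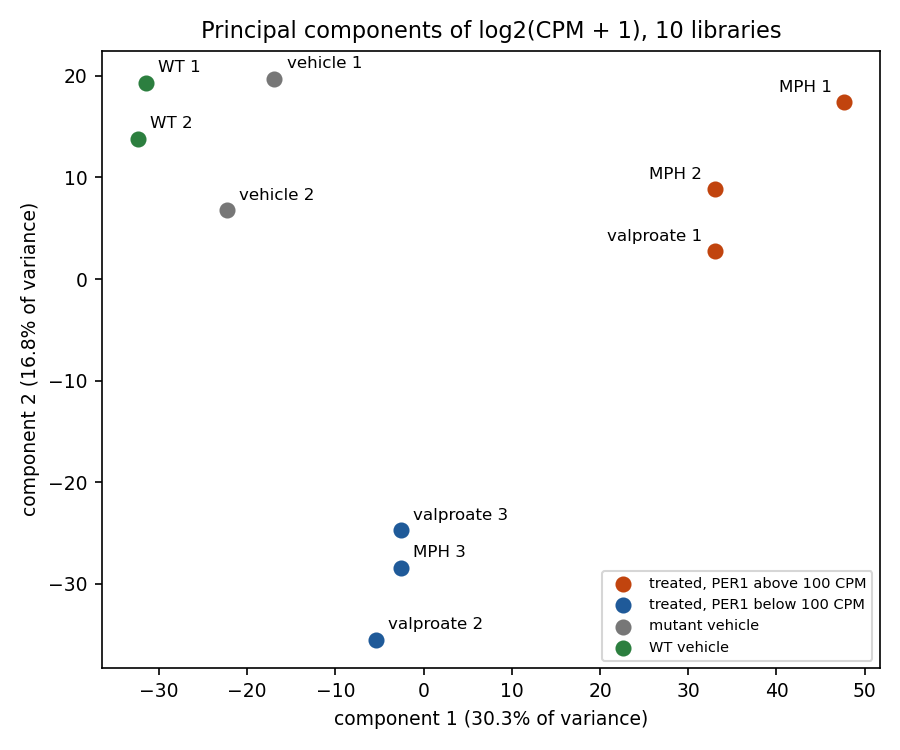
Positions of the 10 libraries on the first 2 principal components of log2(CPM + 1). The treated libraries above 100 CPM of *PER1* sit at 33.0 to 47.7 on component 1, and those below it at -35.5 to -24.7 on component 2, with MPH and valproate on both sides.

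The drugs were also compared by their labels, with a test that was not applied to the sides. The counts of the 2 approaches are therefore not on the same scale. Genes that separate the sides vary within each drug, and the test judges against that spread. In edgeR's quasi-likelihood test with Benjamini-Hochberg adjustment, 0 of 19387 genes (0.0%) were called between the 3 MPH and the 3 valproate libraries. At an unadjusted p under 0.05 were 787 (4.06%). DESeq2's Wald test called 40. Of 80 cytosolic ribosomal protein genes, 74 were at an unadjusted p under 0.05 in edgeR between the drugs, and 0 were called. MPH against mutant vehicle called 43 of 19907 genes (0.216%), 31 higher and 12 lower, and valproate against mutant vehicle called 26 of 19850 (0.131%), 13 in each direction. These comparisons share the 2 vehicle libraries. Leaving out MPH 3 raised the MPH count to 731 and leaving out mutant vehicle 2 lowered it to 1, while leaving out valproate 1 raised the valproate count to 712 and leaving out valproate 2, mutant vehicle 1 or mutant vehicle 2 lowered it to 0. MPH 3 and valproate 1 are the libraries that lie on the other side from the rest of their drug.

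Of the 17485 genes, 1428 (8.17%) were higher in all 3 libraries above the threshold than in any of the 3 below, and 4420 (25.3%) were lower without overlap. The imbalance depended on the scaling. Divided by total counts, the median gene was 0.14 lower on the log2 scale above the threshold, and 24.4% of the genes without overlap were higher. With TMM scaling, which centres the typical gene, the median was 0.0024, and 2742 genes were higher and 2762 lower, so that 49.8% were higher. That centring brings the directions near balance by construction. It cannot tell an excess of lower genes from an effect of dividing by total counts. Changes are therefore read against this shift of -0.14, and list counts are given under both scalings for the lists described.

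A gap of at least 2-fold between the nearest libraries was found for 46 genes that were higher (0.263% of 17485) and 123 that were lower (0.703%). Clock genes made up 8 of the 46 and 5 of the 123. The 8 include *PER1*, whose nearest libraries were 3.14-fold apart and which separates the sides by definition. Leaving out 1 library raised the counts of 46 and 123 to between 51 and 77 higher and 165 and 285 lower. Such an omission cannot narrow the gap between the nearest libraries of a gene. The 38 higher and 118 lower genes that are not on the clock list are described next, followed by groups of genes with known roles. That list does not hold every gene that the clock acts on.

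**Figure D3:**
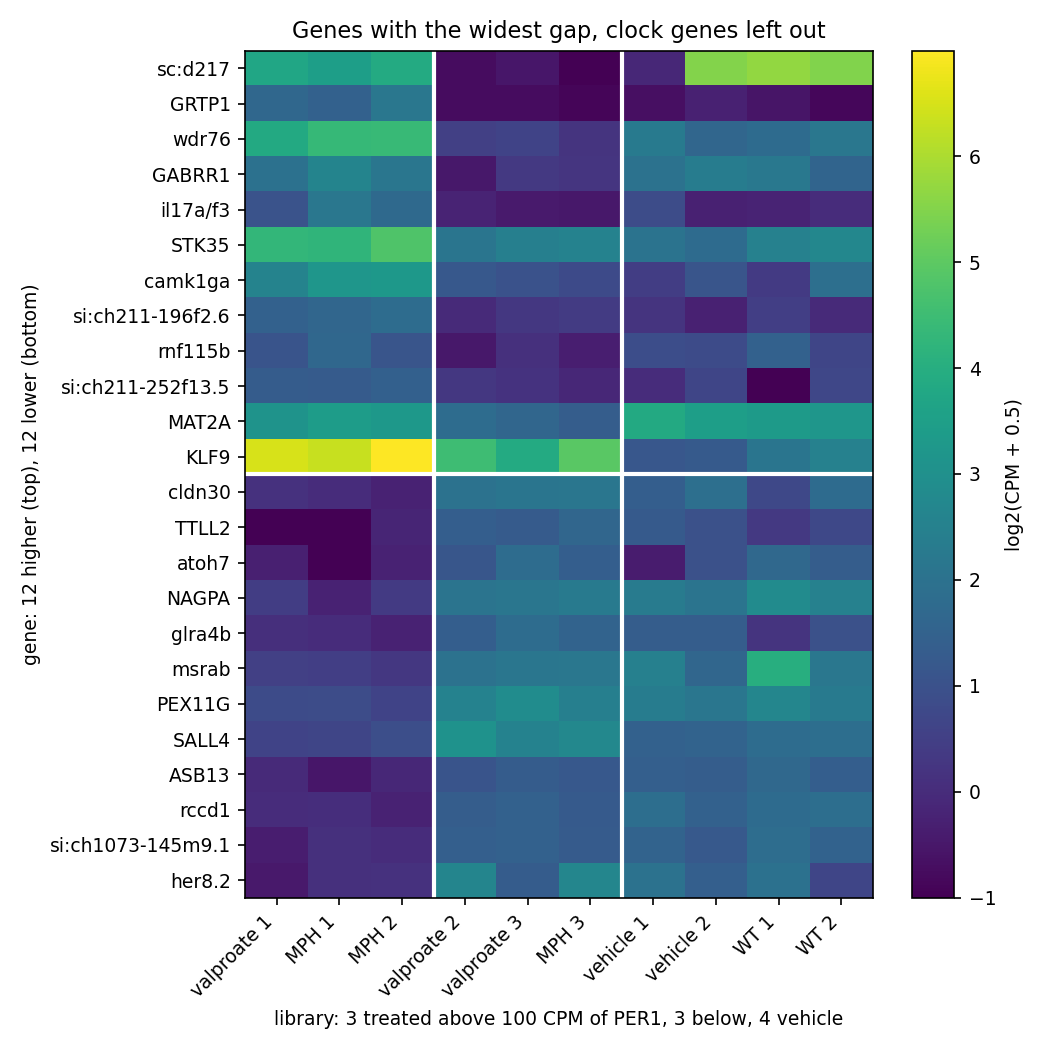
Level, as log2(CPM + 0.5), of the 24 genes outside the clock list with the widest gap between the sides, 12 higher and 12 lower above the threshold, in each of the 10 libraries. *KLF9* is the brightest of the 12 higher genes at 80.2 to 127 CPM above the threshold, and the 12 lower genes read at most 8.01 CPM in the treated libraries.

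The widest gap was that of sc:d217 (ENSDARG00000079645). It read 12.8, 10.7 and 14.2 CPM in valproate 1, MPH 1 and MPH 2, and 0.104, 0.192 and 0 in valproate 2, valproate 3 and MPH 3, which are 2, 4 and 0 counts. It was 0.434 and 45 CPM in the mutant vehicle libraries and 51.6 and 43.7 in WT. The gene was therefore under 0.5 CPM in 4 of the 10 libraries, at 10.7 to 14.2 in 3 and at 43.7 to 51.6 in 3, and the mutant vehicle libraries fell into the first and the last of these.

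The next were *GRTP1* and *wdr76*. *GRTP1* (ENSDARG00000030269), a TBC-domain gene named for its regulation by growth hormone, read 2.66, 2.28 and 4.02 CPM above the threshold and at most 2 counts in each library below it, with 0.0474 to 0.333 CPM in the 4 vehicle libraries. *wdr76* (ENSDARG00000053554), which codes for a WD-repeat protein, read 14.0, 20 and 20.2 CPM above, 0.936, 1.01 and 0.643 below, and 4.38, 2.62, 2.98 and 4.03 in the vehicle libraries. *GRTP1* was thus high only in the 3 libraries above the threshold among these 10, while *wdr76* had its vehicle libraries between the sides.

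Genes of signalling followed. *GABRR1* (ENSDARG00000043902), a subunit of chloride channels opened by GABA, read 3.49, 5.57 and 3.94 CPM above, 0.208, 0.766 and 0.686 below and 2.51 to 4.61 in the vehicle libraries. The libraries below the threshold were the odd ones for this gene. The kinase gene *STK35* (ENSDARG00000086856) read 19.2, 18.4 and 27.2 CPM above and 3.80, 4.93 and 5.36 below, with 3.00 to 5.97 in vehicle. *camk1ga* (ENSDARG00000044526), a calcium/calmodulin-dependent kinase gene, read 5.41, 8.67 and 9.15 CPM above, 1.82, 1.53 and 1.24 below and 0.791 to 3.27 in vehicle. For both kinases the vehicle libraries resembled the libraries below the threshold or lay close to them.

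*KLF9* (ENSDARG00000068194), a zinc finger transcription factor that glucocorticoids and the clock both induce in vertebrates, read 90.5, 80.2 and 127 CPM above and 22.3, 14.4 and 30.5 below. Mutant vehicle read 1.73 and 1.90, and WT 3.77 and 5.16. The 3 levels did not overlap: every treated library was above every vehicle library, and the sides were separate within the treated ones. In edgeR's quasi-likelihood test *KLF9* rose with MPH by 5.56 ± 0.65 (log2, SE; n = 3 and 2, adjusted p = 0.0168 with Benjamini-Hochberg), and the value for valproate was 4.6 ± 0.95 (n = 3 and 2, adjusted p = 0.0933). The MPH call was lost without mutant vehicle 1 or 2 (adjusted p = 0.141 and 0.162) and without MPH 1 or 2 (0.0679 and 0.0585), with fitted values of 5.08 to 5.57.

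*MAT2A* (ENSDARG00000037121), whose enzyme makes the methyl donor S-adenosylmethionine, read 8.16, 10.2 and 9.07 CPM above, 3.02, 2.59 and 2.06 below and 8.72 to 14.1 in vehicle. As with *GABRR1*, it was the libraries below the threshold that departed from vehicle. The other 4 of the 12 were low: *il17a/f3*, an interleukin 17 family gene, *rnf115b*, a ubiquitin ligase gene, si:ch211-196f2.6 and si:ch211-252f13.5 read 1.56 to 4.02 CPM above the threshold and 0.208 to 0.814 below.

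Over all 46 higher genes, the 2 mutant vehicle libraries were both at or beyond the side with the low values for 22, both between the sides for 12, and both at or beyond the side with the high values for 6. For the other 6 they were spread. The labelled tests of MPH against mutant vehicle called 2 of the 46, *KLF9* and si:dkey-201c13.2, with 26 (56.5%) at an unadjusted p under 0.05 in edgeR against 11.7% of all genes. Neither call held without mutant vehicle 2 (adjusted p = 0.162 and 0.133). Those of valproate against mutant vehicle called 0 of 45, with 9 (20%) at an unadjusted p under 0.05 against 16.9% of all genes. The 46 genes were picked for high values in valproate 1, MPH 1 and MPH 2, and these fits use the same libraries. The shares at a small p thus follow in part from that choice and are no test of these genes.

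Several genes among the 46 that lie outside the clock list and the 12 were more strongly expressed, and are named here after their values were seen. *USP2* (ENSDARG00000020107), a deubiquitinase gene, read 112, 136 and 124 CPM above, 34.0, 38.6 and 51.3 below and 30.8 to 46.3 in vehicle. *NOCT* (ENSDARG00000077726), the nocturnin gene, read 19.5, 20.2 and 25.3 CPM above, 5.83, 6.32 and 8.19 below and 6.85 to 11.0 in vehicle. Below the threshold *USP2* in MPH 3 was above the vehicle range, and *NOCT* in valproate 2 and valproate 3 was under it.

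*MT1X* (ENSDARG00000041623), a metallothionein gene, read 482, 936 and 791 CPM above, 184, 225 and 184 below and 109 to 207 in vehicle. *SLC16A3* (ENSDARG00000045051), a lactate transporter gene, read 66.4, 85.2 and 76.1 CPM above, 26.3, 31.0 and 27.4 below and 25.3 to 35.4 in vehicle. The forebrain transcription factor gene *foxg1b* (ENSDARG00000032705) read 14.2, 16.6 and 15.1 CPM above, 1.14, 3.54 and 5.83 below and 0.744 to 1.52 in vehicle. For *foxg1b* the 3 libraries below were unequal, with valproate 2 inside the vehicle range.

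Most of the 12 genes lower above the threshold were expressed at a few CPM. *SALL4* (ENSDARG00000044485), a zinc finger factor of stem cells, read 1.01, 1.08 and 1.41 CPM in valproate 1, MPH 1 and MPH 2 and 8.01, 5.36 and 6.13 in valproate 2, valproate 3 and MPH 3. Its vehicle libraries, at 2.30 to 3.22, lay between. *PEX11G* (ENSDARG00000025559), of the family that divides peroxisomes, read 1.28, 1.32 and 1.03 CPM above and 5.36, 6.94 and 5.02 below, with 3.95 to 5.91 in vehicle. *NAGPA* (ENSDARG00000075149), which finishes the mannose 6-phosphate tag of lysosomal enzymes, read 0.872, 0.348 and 0.770 CPM above, 3.69, 3.88 and 4.33 below and 3.76 to 6.79 in vehicle. In the last pair the libraries above the threshold were the ones away from vehicle.

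*cldn30* (ENSDARG00000069505), a claudin of tight junctions, had the widest gap of the lower genes, with 0.596, 0.503 and 0.342 CPM above and 3.54, 3.78 and 3.86 below. Its vehicle libraries read 1.16 to 3.28. *her8.2* (ENSDARG00000069675), a hairy-related repressor gene of the Notch pathway, read 0.229, 0.580 and 0.599 CPM above and 5.72, 2.01 and 5.92 below. Valproate 3 was the lowest of those below, at a level within the vehicle range of 1.09 to 3.51.

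*glra4b*, a glycine receptor gene, *msrab*, a methionine sulfoxide reductase gene, and *atoh7*, known for the birth of retinal ganglion cells, were at most 0.917 CPM above the threshold and at least 1.72 below. *TTLL2*, *ASB13*, *rccd1* and si:ch1073-145m9.1 were at most 0.580 CPM above and at least 1.61 below. *atoh7* read 0.260 and 1.47 CPM in mutant vehicle, so these libraries did not share 1 place. For the 123 genes as a whole, mutant vehicle was at or beyond the high values for 32, between the sides for 36, at or beyond the low values for 6 and spread for 49. None of the 123 was called in edgeR's test of either drug against mutant vehicle. At an unadjusted p under 0.05 were 9 (7.32%) for MPH and 12 (9.76%) for valproate, against 11.7% and 16.9% of all genes. These fits also reuse the libraries that picked the genes, so the shares are no test of them.

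The most strongly expressed of the 123 were well above this level and are likewise named after their values were seen. *rsrp1* (ENSDARG00000030440), an arginine and serine rich protein gene, read 201, 161 and 166 CPM above and 420, 482 and 572 below, with 337 to 669 in vehicle. *clk4a* (ENSDARG00000089372), of the kinases that phosphorylate splicing factors, read 139, 113 and 117 CPM above and 294, 352 and 375 below, with 202 to 344 in vehicle. *safb* (ENSDARG00000020467), a nuclear scaffold and RNA binding protein gene, read 88.8, 79.3 and 83.2 CPM above and 226, 220 and 225 below. In all of these the vehicle libraries were above every library of the high *PER1* side.

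*CPSF6* (ENSDARG00000018618), a subunit of the complex that cleaves messenger RNA ends, read 78.6, 76.2 and 78.4 CPM above, 165, 167 and 161 below and 125 to 148 in vehicle. *SRSF1* (ENSDARG00000017843), a splicing factor gene, read 42.9, 41.5 and 38.3 CPM above, 114, 99.7 and 129 below and 63.9 to 96.2 in vehicle. *rbmx* (ENSDARG00000014244), another RNA binding protein gene, read 64.9, 55.8 and 57.0 CPM above, 142, 135 and 171 below and 127 to 171 in vehicle. *CPSF6* and *SRSF1* had all 4 vehicle libraries between the sides. *NDRG1* (ENSDARG00000010420), a stress-responsive gene, differed in this respect. It was not among the most strongly expressed genes and was also singled out after its values were seen. It read 1.06, 0.851 and 1.2 CPM above and 12.1, 3.35 and 5.96 below, with 0.900 to 1.3 in vehicle.

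Groups of genes with a shared role were counted next, each as its members that passed a mean of 1 CPM, and how many of these did not overlap between the sides. The shares to read them against are 8.17% higher and 25.3% lower over all genes, or 15.7% and 15.8% with TMM scaling.

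**Figure D4:**
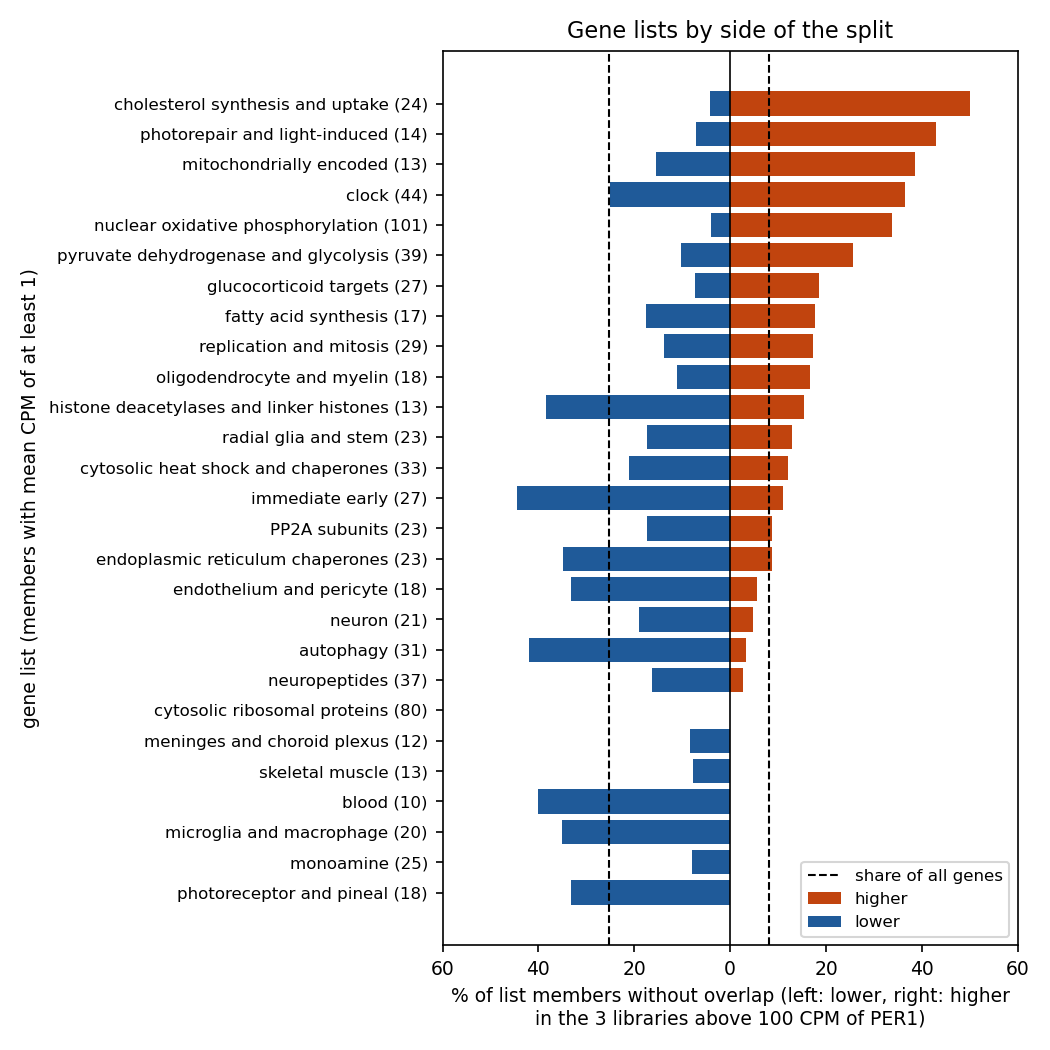
Share of each gene list whose members were higher (right) or lower (left) in all 3 treated libraries above the threshold, for lists with at least 10 members past 1 CPM (number in brackets). Dashed lines mark the shares of all genes, 8.17% higher and 25.3% lower, and cholesterol synthesis reaches 50% higher and immediate early genes 44.4% lower.

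The clock genes lay in both directions along the split. Of 44, 16 were higher and 11 lower, with 20 and 8 under TMM scaling. *PER1*, which separates the sides by definition, is among the 16. *PER3* (ENSDARG00000010519), another period gene, read 118, 123 and 173 CPM above and 20.7, 20.4 and 12.3 below, with 53.3 to 71.6 in vehicle. *nfil3-6* (ENSDARG00000087188), of the *NFIL3* family of repressors, read 202, 163 and 252 CPM above and 27.1, 39.7 and 37.9 below. *nr1d4b* (ENSDARG00000059370), a REV-ERB family receptor gene, went the other way, with 5.96, 4.22 and 8.64 CPM above, 53.1, 55.2 and 40.5 below and 2.17 to 3.17 in vehicle. *fbxl3l* did likewise, at 2.75 to 4.14 CPM above and 13.2 to 18.0 below. Since the rule used a clock gene, these values only describe what the split separated.

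Genes that rose against vehicle did not all follow the split. *NR1D1* (ENSDARG00000033160), a clock gene that codes for the repressor REV-ERB alpha, named here after its values were seen, read 50.4, 57.7 and 68.3 CPM above and 80.7, 79.4 and 50.2 below against 6.90 and 7.75 in mutant vehicle. It rose by 3.11 ± 0.23 with MPH (adjusted p = 0.00294) and by 3.24 ± 0.21 with valproate (adjusted p = 0.0110; log2, SE, edgeR, n = 3 and 2). *PDK2* (ENSDARG00000020876), a kinase that turns down pyruvate dehydrogenase and was likewise singled out afterwards, read 39.3, 60 and 64.2 CPM above and 59.1, 33.7 and 46.8 below against 5.85 and 7.46 in mutant vehicle. It rose by 3.21 ± 0.25 with MPH (adjusted p = 0.00315) and 2.72 ± 0.26 with valproate (adjusted p = 0.0180; log2, SE, edgeR, n = 3 and 2). These 2 genes separated treated from vehicle libraries with the sides overlapping. Without mutant vehicle 2 neither passed edgeR's test for MPH (adjusted p = 0.0526 for both) or valproate (0.223 for *NR1D1* and 0.240 for *PDK2*), and the valproate calls were also lost without mutant vehicle 1 (0.243 and 0.447) and without valproate 2 (0.0531 for both).

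Among 14 genes induced by light, many of them for DNA repair, 6 were higher, 1 was lower and 7 overlapped, or 7 and 1 with TMM scaling. *lonrf1* (ENSDARG00000078567), a light-induced RING finger gene, read 110, 133 and 146 CPM above and 47.7, 48.1 and 43.6 below, with 52.0 to 60.5 in vehicle. *cry-dash* (ENSDARG00000002396), a photolyase relative, read 26.4, 38.3 and 41.8 CPM above, 14.0, 12.1 and 10.8 below and 11.3 to 16.0 in vehicle. The vehicle libraries of both genes sat near the low side. *cry5*, the 6-4 photolyase gene, read 8.44 to 11.7 CPM above and 3.22 to 4.59 below, and *XPC*, a damage sensor of nucleotide excision repair, 17.6 to 23.5 and 13.2 to 14.1. For *cry5* WT vehicle, at 8.48 and 8.75 CPM, was inside the range of the high side. None of the 14 was called in the edgeR test of either drug against vehicle.

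**Figure D5:**
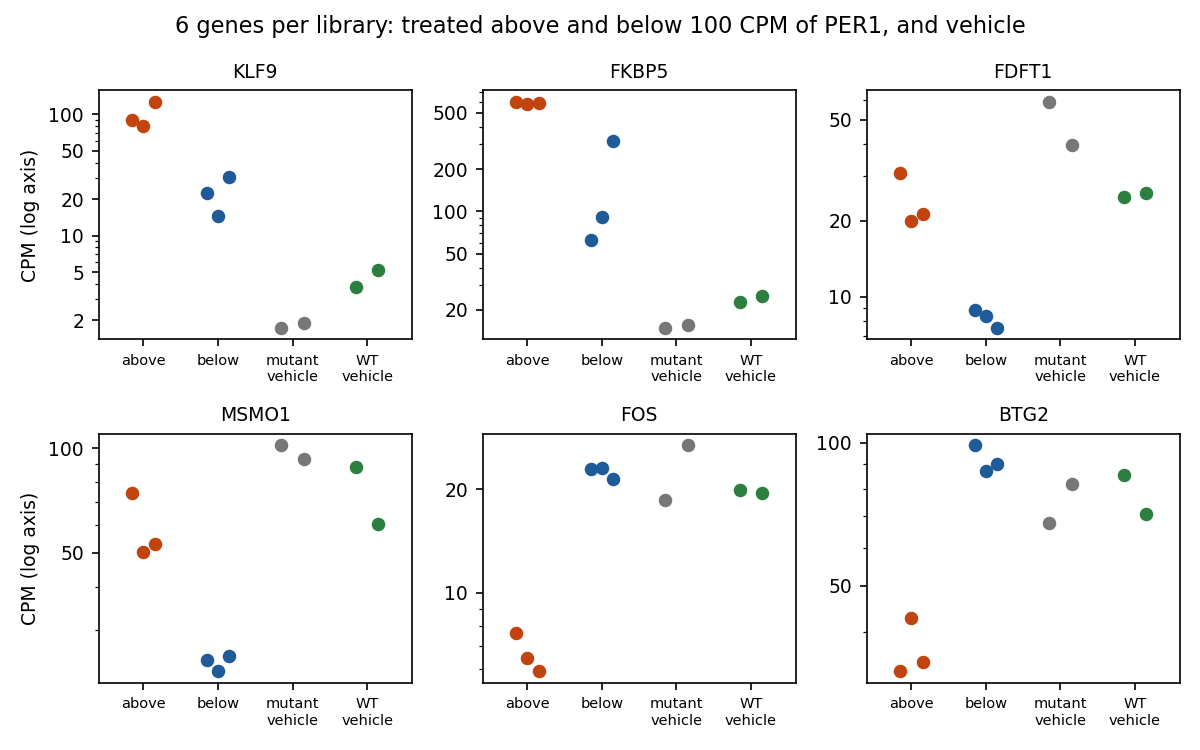
CPM on log axes of 2 glucocorticoid targets, 2 cholesterol synthesis genes and 2 immediate early genes in each library. *KLF9* and *FKBP5* are lowest in vehicle, *FDFT1* and *MSMO1* are lowest in the treated libraries below 100 CPM of *PER1*, and *FOS* and *BTG2* are lowest in those above it.

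Glucocorticoid targets without overlap were mostly on the high side. Of 27, 5 were higher and 2 lower, with 9 and 2 under TMM scaling, and the list's median was 0.26 against -0.14 for all genes on the log2 scale. *FKBP5* (ENSDARG00000028396), a chaperone of the steroid receptors and a classical glucocorticoid target, read 600, 580 and 590 CPM above and 63.0, 91.5 and 317 below. Vehicle read 14.9 and 15.6 in the mutant and 22.7 and 25.3 in WT. The 3 libraries above were nearly equal, while MPH 3 was well above both valproate libraries below the threshold. In edgeR's test *FKBP5* rose by 5.13 ± 0.37 with MPH (log2, SE; adjusted p = 0.00294, n = 3 and 2), and valproate gave 4.11 ± 1.09 (adjusted p = 0.141, n = 3 and 2). Without mutant vehicle 2 the MPH value for *FKBP5* was 5.12 (adjusted p = 0.0526).

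*igfbp1b*, a binding protein of insulin-like growth factors that fasting induces, was low, at 1.65 to 2.82 CPM above and 0.686 to 0.780 below. *cdkn1a* (ENSDARG00000076554), the cell cycle inhibitor p21, ran against most of the list, with 2.29, 2.98 and 1.67 CPM above and 7.02, 6.32 and 8.36 below. Vehicle libraries read 0.0867 to 1.47 CPM, so each treated library was above them and the sides were still separate. The fitted values for *cdkn1a* against mutant vehicle, 2.58 for MPH and 2.74 for valproate on the log2 scale, did not pass edgeR's test (adjusted p = 0.374 and 0.195). Besides *FKBP5* and *KLF9*, *HSD11B2* was called for MPH among the glucocorticoid targets, with overlapping sides and an adjusted p of 0.0392 that was 0.109 to 0.507 without either vehicle library, MPH 1 or MPH 2, and 0 of 28 were called for valproate.

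Cholesterol synthesis showed the largest share of higher genes among lists of at least 10 members. Of 24 genes, 12 (50%) were higher above the threshold and 1 lower, with 15 and 1 under TMM scaling, and the list's median was 0.62 against -0.14. *FDFT1* (ENSDARG00000101062), the squalene synthase gene that commits the pathway to sterols, read 30.7, 20 and 21.2 CPM above and 8.84, 8.38 and 7.54 below. *MSMO1* (ENSDARG00000055876), a sterol methyl oxidase gene, read 74.6, 50.2 and 53.0 CPM above and 24.6, 22.8 and 25.3 below. *EBP*, the sterol isomerase gene, read 26.7 to 29.7 and 8.09 to 13.1 CPM, and *SC5D*, the sterol desaturase gene, 16.5 to 26.1 and 8.43 to 8.96.

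The vehicle libraries placed this list differently from the glucocorticoid targets. *FDFT1* read 58.9 and 39.7 CPM in mutant vehicle and 24.7 and 25.6 in WT, and *MSMO1* 102 and 93.2, and 88.5 and 60.4. For 11 of the 12 higher genes both mutant vehicle libraries were at or beyond the side with high values. The low values were those of valproate 2, valproate 3 and MPH 3, and the summed level of the list was 610 to 639 CPM in these 3, 804 to 1260 in the 3 above, 1530 and 1680 in mutant vehicle and 929 and 1080 in WT. Valproate 1 was the highest of the treated libraries. In edgeR's test 4 of 25 genes fell with MPH against mutant vehicle, *LSS*, *SQLE* and *HMGCS1* among them, and 0 of 25 with valproate. *SQLE*, the squalene epoxidase gene, fell by 2.99 on the log2 scale (SE 0.33, adjusted p = 0.0149, n = 3 and 2). Without mutant vehicle 2 the adjusted p was 0.0712 for *SQLE*, 0.0573 for *LSS* and 0.106 for *HMGCS1*, and without mutant vehicle 1 0.0960, 0.174 and 0.132, so none was called then. Leaving out MPH 2 ended these calls too (0.0763, 0.0592 and 0.0592), and leaving out MPH 1 ended those of *LSS* and *HMGCS1* (0.0566 and 0.0966).

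Fatty acid synthesis had 3 of 17 genes higher and 3 lower, 5 and 1 with TMM scaling, and 9 and 3 without MPH 1. *SCD* (ENSDARG00000033662), the stearoyl-CoA desaturase gene, read 66.3, 19.9 and 38.3 CPM above and 10.4, 11.5 and 9.90 below. *ELOVL5*, a fatty acid elongase gene, read 24.5, 9.25 and 23.9 CPM above and 6.71, 8.0 and 3.64 below. MPH 1 was the lowest of the 3 above for both. *ACLY*, whose enzyme supplies cytosolic acetyl-CoA, was lower, at 1.47 to 4.06 CPM against 4.88 to 6.26.

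Among genes of energy metabolism the gaps were small. Of 101 nuclear genes of oxidative phosphorylation, 34 (33.7%) were higher, 4 lower and 63 overlapped, with 43 and 2 under TMM scaling, but none was 2-fold apart and the list's median was 0.13. *UQCRFS1*, the Rieske protein gene of complex III, read 341, 451 and 318 CPM above and 258, 271 and 258 below, and *NDUFA10*, of complex I, 132, 180 and 128 against 107, 110 and 108. MPH 1 was the highest for both, and its summed level for the list, 25600 CPM, was above the 17400 to 18700 of the other 2 libraries above the threshold and the 15500 to 17000 below. Without MPH 1, 34 were higher and 13 lower, against 14.6% and 30.3% of all genes. Mutant vehicle was spread over the sides for 26 of the 34.

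Glycolysis and pyruvate dehydrogenase genes had 10 of 39 higher and 4 lower, or 14 and 3 with TMM scaling. *ENO1*, an enolase gene, read 1840, 2640 and 1670 CPM above and 1250, 1280 and 1360 below, *GAPDHS*, a glyceraldehyde-3-phosphate dehydrogenase gene, 3270, 3570 and 2950 against 2410, 2530 and 2480. *pgam1b*, a phosphoglycerate mutase gene, read 501 to 715 and 398 to 402. The exception named by its gap was *pfkfb2a*, which makes the activator of phosphofructokinase, at 6.37 to 9.31 CPM above and 11.2 to 13.9 below. Of 13 mitochondrially encoded genes 5 were higher and 2 lower, or 6 and 1, and of 80 cytosolic ribosomal protein genes 0 were higher and 0 lower, or 2 and 0 with TMM scaling.

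Immediate early genes are those that neurons switch on within minutes of activity. Of 27, 12 (44.4%) were lower above the threshold, 3 higher and 12 overlapped, with 11 and 4 under TMM scaling, and the list's median was -0.41. *FOS* (ENSDARG00000031683), a subunit of the AP-1 factor, read 7.66, 6.46 and 5.90 CPM above and 23.0, 23.1 and 21.5 below. *ier2b* (ENSDARG00000086881) read 8.30, 9.71 and 7.74 CPM above and 26.5, 23.9 and 22.1 below. *BTG2* (ENSDARG00000020298), an antiproliferative gene, read 33.0, 42.8 and 34.5 CPM above and 98.7, 87.0 and 90.1 below. *JUN*, the partner of *FOS*, read 66.3, 66.1 and 68.4 CPM above and 147, 118 and 113 below.

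Values within each side were close for *FOS* and the sides were far apart. In vehicle *FOS* read 18.6 and 26.9 CPM in the mutant and 19.9 and 19.5 in WT, around the level below the threshold, and *BTG2* read 67.9 to 85.5. *JUN* read 77.5 to 92.5 in vehicle, between the sides. Of the 12 lower genes, mutant vehicle was at or beyond the high values for 4, between for 2, at or beyond the low values for 2 and spread for 4. None of the 27 was called against vehicle for either drug in edgeR. The drugs were compared with both sides pooled, where *FOS* was -0.93 for MPH and -0.37 for valproate on the log2 scale (adjusted p = 0.517 and 0.686).

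Chaperones of the endoplasmic reticulum had 8 of 23 genes lower and 2 higher, and 7 and 3 under TMM scaling. *HSP90B1*, the ER paralogue of HSP90, read 92.4, 86.6 and 82.5 CPM above and 164, 123 and 125 below, with 182 to 221 in vehicle. *calr3a*, a calreticulin gene, read 52.4, 42.2 and 47.9 CPM above and 105, 73.4 and 91.0 below. *XBP1*, the transcription factor of the unfolded protein response, was higher, at 272 to 359 against 170 to 215. Mutant vehicle was at or beyond the high values for 7 of the 8 lower genes. None of 24 tested genes was called for either drug in edgeR.

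In the cytosol, 4 of 33 heat shock and chaperone genes were higher and 7 lower, and TMM scaling turned this to 8 higher and 5 lower, so the list has no direction that holds under both. *SERPINH1* (ENSDARG00000019949), the collagen chaperone, read 1.56, 0.967 and 0.599 CPM above, 4.73, 3.50 and 3.6 below and 7.44 to 20.1 in vehicle. *HSPA8*, the constitutive HSP70, read 2020, 2080 and 1690 CPM above and 1190, 1180 and 1030 below, with 1660 to 2060 in vehicle. All 3 libraries below the threshold were under every vehicle library for *HSPA8*. In edgeR's test 2 of 34 genes of the list were called lower with MPH against mutant vehicle, and 0 with valproate. They were *HSPA4* at -1.27 (log2, adjusted p = 0.0168) and *HSP90AA1* at -1.35 (adjusted p = 0.0489, n = 3 and 2). Without MPH 2 neither passed (adjusted p = 0.0763 and 0.194), and without MPH 1 *HSPA4* did not (0.0679). With DESeq2's size factors in edgeR *HSP90AA1* did not pass (adjusted p = 0.0602). Neither call was kept without mutant vehicle 1 or 2. The values were then -1.25 and -1.29 for *HSPA4* and -1.34 and -1.37 for *HSP90AA1*.

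Autophagy genes had 13 of 31 lower and 1 higher by total count. The list's median was -0.17, close to the shift of all genes, and under TMM scaling 7 were lower and 4 higher. *ATG4C*, a protease that processes the LC3 family, read 11.6, 11.8 and 11.5 CPM above and 16.1, 19.6 and 17.6 below. *ulk1a*, the kinase that starts autophagy, read 6.92 to 11.7 CPM above and 15.3 to 19.5 below, with 9.79 to 11.6 in vehicle. For 8 of the 13 mutant vehicle was at or beyond the low values, which are those above the threshold here.

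Lists tied to the mutation and to the drugs gave these counts. Among 23 PP2A subunits 2 were higher and 4 lower, and 4 and 2 with TMM scaling. *ppp2r2ba*, another B-type regulatory subunit gene, read 60.3, 40.5 and 46.5 CPM above, 91.7, 90.5 and 93.6 below and 66.4 to 76.9 in vehicle. Among 13 histone deacetylase and linker histone genes, some of which code for targets of valproate, 2 were higher and 5 lower, or 2 and 3 with TMM scaling. *HDAC7* read 12.9 to 15.4 CPM above and 8.06 to 9.88 below, and *HDAC11* 5.00 to 5.5 and 6.64 to 7.95. In edgeR's test the linker histone genes *histh1l1* and *H1-10* were called higher with MPH against mutant vehicle, and 0 of the list with valproate. The sides of *H1-10* overlapped, and neither call held without mutant vehicle 2 (adjusted p = 0.162 for *histh1l1* and 0.0870 for *H1-10*). Among 25 monoamine genes 0 were higher and 2 lower (8.0%), *QDPR* and *PTS*, both of the tetrahydrobiopterin cofactor pathway, and with TMM scaling 3 were higher and 2 lower. *QDPR* read 3.33 to 4.45 CPM above and 6.66 to 8.86 below.

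Replication and mitosis genes had 5 of 29 higher and 4 lower, or 6 and 1 with TMM scaling. *chaf1a*, a chromatin assembly factor gene, read 20.1, 19.8 and 28.2 CPM above and 6.55, 8.76 and 14.6 below. *MCM2* (ENSDARG00000102798), of the replicative helicase, read 8.16, 11.8 and 7.4 CPM above and 6.40, 5.94 and 6.60 below, against 35.3 and 27.0 in mutant vehicle and 11.8 and 10.2 in WT. Both sides were far below mutant vehicle. *MCM2* fell by 2.19 on the log2 scale with valproate (SE 0.23, adjusted p = 0.0275, edgeR, n = 3 and 2). Its value for MPH was -1.74 ± 0.32 (adjusted p = 0.110, n = 3 and 2). With MPH 1 gene of the list was called lower in edgeR, *TOP2A*, at -1.7 (adjusted p = 0.0491, n = 3 and 2). The *TOP2A* call was lost without MPH 1 (adjusted p = 0.201) or MPH 2 (0.0952), and in edgeR with DESeq2's size factors (0.053). It was not kept without mutant vehicle 1 or 2 either, with values of -1.6 and -1.8. The valproate call of *MCM2* was lost without mutant vehicle 1 (adjusted p = 0.487), mutant vehicle 2 (0.223) or valproate 2 (0.104).

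Markers of cell types were counted in the same way. In bulk brain, fewer cells of a type and less RNA per cell cannot be told apart. Microglial genes had 7 of 20 lower and 0 higher, 4 and 0 with TMM scaling, and the list's median was -0.41. *MPEG1*, a pore-forming gene of macrophages, read 15.0, 10.3 and 11.5 CPM above and 33.0, 16.9 and 27.7 below. *cd74b*, of antigen presentation, read 41.5 to 69.6 and 83.1 to 137. The summed level of the list overlapped, at 788 to 1090 CPM above and 818 to 1230 below.

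Oligodendrocyte genes had 3 of 18 higher and 2 lower, or 5 and 1 with TMM scaling. *PDGFRA* (ENSDARG00000070494), the receptor of oligodendrocyte precursors, read 5.87, 8.36 and 7.91 CPM above and 18.2, 15.8 and 19.4 below, with 17.0 to 24.6 in vehicle. *mbpa*, a myelin basic protein gene, was higher, at 6150 to 7310 against 4780 to 5430 CPM, and *cldnk*, a myelin claudin gene, at 111 to 128 against 71.7 to 85.4. *mbpa* and *cldnk* thus lay in the opposite direction from *PDGFRA*, while 13 of the 18 genes overlapped and the list's median was -0.07. Radial glial genes had 3 of 23 higher and 4 lower, or 6 and 0 with TMM scaling, and neuronal genes 1 of 21 higher and 4 lower, or 4 and 1, so neither list has a direction that holds under both scalings. *GFAP* read 153 to 221 CPM above and 102 to 133 below.

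Markers of tissues around the brain differed among the libraries. Photoreceptor and pineal genes had 6 of 18 lower and 0 higher, which held under TMM scaling. *PDE6G*, a subunit of the phosphodiesterase of phototransduction, read 2.24 to 2.40 CPM above and 20.2, 6.18 and 9.69 below. Valproate 2 was the highest library for *PDE6G*. Without valproate 2, 6 photoreceptor genes were lower and 3 higher.

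Blood genes had 4 of 10 lower, or 2 with TMM scaling. *hbaa1*, an alpha globin gene, read 46.9, 66.8 and 50.6 CPM above and 74.0, 76.7 and 269 below. It fell with valproate by 2.02 on the log2 scale against mutant vehicle (SE 0.17, adjusted p = 0.0148, edgeR, n = 3 and 2), where *hbaa1* read 253 and 276. That call was lost without mutant vehicle 1 (adjusted p = 0.243), mutant vehicle 2 (0.223) or valproate 2 (0.0531). The summed level of pituitary genes was 61.3 and 63.7 CPM in valproate 1 and MPH 2, but 5.73 in MPH 1 and 1.40 to 8.20 in the other 7 libraries. That sum was therefore high in 2 of the 3 libraries above the threshold, and 1 of the 11 listed pituitary genes was at 0 in all treated libraries. No lens gene reached a mean of 1 CPM, and 1 of 13 muscle genes and 1 of 12 meningeal and choroid plexus genes, *OTX2*, were lower. Endothelial genes had 6 of 18 lower and 1 higher, or 4 and 1 with TMM scaling, and neuropeptides 6 of 37 and 1, or 4 and 2. The part of these markers, and of the ribosomal share of MPH 1, in the gene differences above was not tested.

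The same members of the cholesterol, immediate early and glucocorticoid lists were also counted without MPH 1 or without valproate 2. An omission cannot bring back an overlap, so these counts can only stay or grow and are no test of the direction. Without MPH 1, 16 of 24 cholesterol genes were higher and 1 lower, and 14 of 27 immediate early genes lower and 3 higher. Of 27 glucocorticoid targets, 8 were higher and 2 lower, against 14.6% higher and 30.3% lower over all genes. Without valproate 2 these were 14 and 1, 12 and 3, and 9 and 2, against 11.0% and 28.8%. These omissions were chosen after seeing the data. The hour at which the fish were killed, their last meal and their handling are not in the labels, so their part in the split was not tested.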

How the data were processed

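Paired-end brain RNA-seq reads were filtered with SOAPnuke, trimmed, and aligned by the authors with STAR 2.6.1d to the zv10 release, and the deposited values are whole counts per gene without normalization, from STAR's gene counting. The column of strand used is not given in the sources used here, so overlapping and antisense genes cannot be told apart. Of 32266 gene IDs 26433 had a symbol in the reference table; some symbols in capitals are shared by paralogues, whose reads may be split. CPM was the count over the column sum. Genes with a mean of at least 1 CPM over the 6 treated libraries were compared by their nearest libraries, lower values being raised to a floor of 3 counts per library. Named genes were the 12 per direction with the largest such ratio that have a symbol and are not on the clock list. Up to 4 members of each of 30 lists were also named. Genes singled out otherwise are said to be. The members and lists were chosen with earlier results of these data known.

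Labelled groups were compared with edgeR 4.0.16 (R 4.3.3, filterByExpr with counts of 10 and 15, TMM, quasi-likelihood test, Benjamini-Hochberg adjusted p under 0.05), with DESeq2 1.42.0 as an alternative. The edgeR test was run on simulated counts with 200 genes changed 4-fold. It found 149 of these for MPH against valproate with 7 false calls, and 142 for MPH against vehicle with 11. For valproate against vehicle it found 149 with 16 false calls. Adjusted p-values judge a group difference against the spread between these libraries, each of 2 pooled brains. A count of 3 or fewer is at the floor, and depth limits cover counting error only. Other scalings, filters, folds, a replicate block and the omission of each library were also run. Python 3.11.15, pandas 2.3.3 and matplotlib 3.10.9 were used. Some genes of the lists are not reported here.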

Additional observations from a re-analysis of the deposited data

How the results depend on the processing

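With thresholds other than 2-fold, 127 genes were higher and 517 lower at 1.5-fold, and 11 and 22 at 3-fold. A mean CPM of at least 5 left 27 and 46, and one of 0.5 gave 54 and 154. TMM scaling gave 67 higher and 77 lower, and DESeq2's size factors 72 and 75. Leaving out each library, which cannot narrow a gap, gave 51 to 77 higher and 165 to 285 lower.

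MPH against valproate called 0 genes in edgeR (787 at an unadjusted p under 0.05), 134 at an unadjusted p under 0.01, 1 without a filter, 40 with DESeq2 and 0 to 1 without each library. MPH against vehicle called 43, then 723, 219, 496 and 1 to 731 under these settings, and 143 with all 10 libraries in 1 fit. Valproate against vehicle called 26, then 1207, 267, 1071 and 0 to 712. With 1 library left out of a vehicle group, the lone library is assumed to vary like the others.

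With the replicate number as a block, these comparisons called 2, 2481 and 137 genes. Deviations of same-numbered MPH and valproate libraries correlated by 0.174, -0.221 and 0.142, which shows no common pairing by number. These values cannot exclude one, as they are deviations from means of 3 libraries and also carry the split. The block against vehicle uses only the numbers that both groups have. Over these settings, the 27 calls among list members and genes at least 2-fold apart held in 179 cases and lost significance in 91, all 27 without mutant vehicle 2, and none reversed; list counts stayed within 1.5 times in 166 cases and did not in 74. Low counts limit the genes near 1 CPM. Promoter motifs were not run. The causes of these differences were not tested.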
